A study of Mus musculus with 12 samples.

Results

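The insulin-like growth factor (IGF) genes were followed in germ cells and somatic cells of the fetal mouse ovary, after dexamethasone (dex) or saline. The set was chosen by gene name in the deposited count table and held 10 of its 54532 genes. It comprised the ligands *Igf1* and *Igf2*, the receptors *Igf1r* and *Igf2r*, and 6 genes named as binding proteins, *Igfbp2*, *Igfbp3*, *Igfbp4*, *Igfbp5*, *Igfbp6* and *Igfbp7*. All 10 passed the filter on low counts in every comparison.

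Poly-A RNA was sequenced from 12 bulk libraries, 4 groups of 3. All embryos were female, of the strain given as Tg(Pou5f1-EGFP)2Mnn, and were taken at embryonic day E15.5. Their dams had received an intraperitoneal injection on each of 4 days, E12.5 to E15.5. It held dex, a synthetic glucocorticoid receptor (GR) agonist, at a dose of 10 µg for each g of weight, or saline alone. Ovaries pooled over several litters were dissociated and sorted on the *Pou5f1*-GFP (OCT4-GFP) transgene. The GFP-positive fraction is called germ cells here, and the GFP-negative fraction, called somatic cells or soma, held every other cell of the ovary. Dams, not embryos, were injected, so an effect of dex on the ovary cannot be told apart from an effect on the dam.

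The libraries held between 14658503 and 18245507 counted fragments. Germ cell markers summed to between 2459 and 3011 CPM (counts scaled to library size) in germ cells. In soma those markers summed to between 2.89 and 6.07 CPM after saline and between 15.2 and 20.5 CPM after dex. Most of that difference was *Dazl*, at 1.17 ± 0.194 CPM after saline and 12.6 ± 0.174 CPM after dex (SD, n = 3), while *Ddx4*, at 1.11 ± 0.563 and 1.73 ± 0.830 CPM, was not called. The third soma dex library stood apart from the other 2 soma dex libraries, with a chi-square per gene of 16.3 and 21.8 against them, where they differed from each other by 9.41. It had the lowest summed level of the stroma markers (19400 CPM) and of the erythroid markers (3270 CPM) among the 6 soma libraries, and the highest of the pregranulosa markers (1129 CPM).

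IGF1 and IGF2 are secreted peptides that act through IGF1R, a receptor tyrosine kinase. IGF2R, also known as the cation-independent mannose 6-phosphate receptor, takes up IGF2 and delivers it to lysosomes for breakdown. IGFBP2 to IGFBP6 bind IGFs with high affinity and can hold them away from the receptor or carry them to it. IGFBP7 binds IGFs only weakly. In most somatic tissues *Igf2* and *Igf2r* are imprinted, *Igf2* being expressed mainly from the paternal allele and *Igf2r* from the maternal allele. Expression by allele was not measured here. In the ovary, IGFs act with gonadotropins on the cells around the oocyte.

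In these data the ligand and binding protein genes were read almost wholly from soma, while both receptor genes were read in germ cells and in soma. After dex, *Igfbp7*, *Igfbp2* and *Igfbp3* were higher in soma, and *Igfbp5* and *Igf1* were lower. Of these calls only that of *Igfbp7* held under all 12 alternative settings tried. The calls of *Igfbp5*, *Igf1* and *Igfbp2* held in 11, 9 and 8 of the 12, and that of *Igfbp3* in 1. *Igfbp7* had the largest change of the 10, with a level 1.88 times that after saline. In germ cells none of the 10 genes passed the test for dex against saline. Over all genes tested 0.208% were called in germ cells, against 8.18% in soma. The direct test of the difference between the cell types called none of the 10 either, so a response confined to soma is not shown.

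The promoters of the 3 binding protein genes with the largest changes in soma are shown because their levels moved under a GR agonist. Each is the 250 bases before a RefSeq transcript start in GRCm38.p6, printed 5′ to 3′ on the strand of the gene. They were searched on both strands for the half-site of the glucocorticoid response element, AGAACA or its reverse complement TGTTCT. A full site was taken as AGAACA, any 3 bases and TGTTCT. A half-site is printed in capitals.
Igfbp7, chr5:77408046-77408295, minus strand: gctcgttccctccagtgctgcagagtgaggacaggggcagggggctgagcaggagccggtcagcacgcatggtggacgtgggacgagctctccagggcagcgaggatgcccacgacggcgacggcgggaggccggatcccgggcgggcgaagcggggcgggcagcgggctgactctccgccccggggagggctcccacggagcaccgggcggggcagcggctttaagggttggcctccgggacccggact
Igfbp5, chr1:72874866-72875115, minus strand: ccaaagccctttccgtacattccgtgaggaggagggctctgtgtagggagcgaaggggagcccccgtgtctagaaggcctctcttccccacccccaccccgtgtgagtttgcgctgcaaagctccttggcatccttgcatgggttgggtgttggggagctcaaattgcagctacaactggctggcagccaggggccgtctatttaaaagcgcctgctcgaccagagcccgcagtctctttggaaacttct
Igfbp2, first of its start sites, chr1:72824230-72824479, plus strand: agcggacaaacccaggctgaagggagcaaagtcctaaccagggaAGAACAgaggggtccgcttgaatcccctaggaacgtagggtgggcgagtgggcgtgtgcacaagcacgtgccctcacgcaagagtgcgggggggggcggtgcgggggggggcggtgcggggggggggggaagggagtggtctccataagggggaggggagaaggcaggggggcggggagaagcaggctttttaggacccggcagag

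The *Igfbp2* window held 1 half-site, 206 bases before the start, and the windows of *Igfbp7* and *Igfbp5* held none. Among the 14 promoters that RefSeq gave for the 10 genes, the only other match was 1 half-site 85 bases before the most upstream *Igf2* start. No promoter of the 10 genes held a full site. For comparison, 16.0% of all 32536 promoters of this length held a half-site and 0.00922% a full site. A match is a run of letters in these windows, and binding was not measured.

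The *Igfbp2* gene (ENSMUSG00000039323, GRCm38 chromosome 1, 72824503 to 72852474, plus strand) and the *Igfbp5* gene (ENSMUSG00000026185, chromosome 1, 72857932 to 72874884, minus strand) point towards each other with 5457 bases between them. *Igfbp7* (ENSMUSG00000036256) lies on chromosome 5, 77349240 to 77408041, minus strand. *Igfbp3* (ENSMUSG00000020427, chromosome 11, 7206086 to 7213923, minus strand) lies 3539 bases from *Igfbp1*, which runs on the opposite strand. *Igfbp4* (ENSMUSG00000017493) lies on chromosome 11, 99041244 to 99054392, plus strand, and *Igfbp6* (ENSMUSG00000023046) on chromosome 15, 102144362 to 102149511, plus strand. The ligand genes are *Igf1* (ENSMUSG00000020053, chromosome 10, 87858265 to 87937042, plus strand) and *Igf2* (ENSMUSG00000048583, chromosome 7, 142650766 to 142666816, minus strand). The receptor genes are *Igf1r* (ENSMUSG00000005533, chromosome 7, 67952827 to 68233668, plus strand) and *Igf2r* (ENSMUSG00000023830, chromosome 17, 12682406 to 12769664, minus strand).

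Some of these genes share bases with others, and the strand setting used for counting is not given in the sources used here. *Igf2* shares 3596 exon bases, 62.8% of its exon length, with *Gm49394* on the same strand. *Gm49394* had 0 counts in all 12 libraries, so no shared fragment was counted for it. Whether such fragments were counted for *Igf2* or left out is not given, so the level of *Igf2* is uncertain and may read too low. *Igfbp7* shares 85 exon bases, 7.03% of its length, with *Polr2b* on the opposite strand, which after saline had a mean of 690.5 CPM in the germ cell libraries against 96.2 CPM in the soma libraries. *Airn*, the antisense RNA within *Igf2r*, shares no exon base with it.

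Which cell type held each transcript was asked first, in the saline libraries. Levels are compared between genes per length, as the deposited FPKM (fragments scaled to exon length and depth). In soma *Igfbp5* had the highest level at 669.5 ± 31.4 FPKM (SD, n = 3). *Igfbp4* followed at 282 ± 18.0 FPKM, *Igfbp2* at 163 ± 18.7 FPKM and *Igfbp3* at 131 ± 1.78 FPKM. Each of these 4 was apart from the next in every library. *Igf2r* stood at 58.0 ± 1.63 FPKM and *Igf2* at 53.2 ± 2.30 FPKM. The *Igf2* level may read too low, given the exon bases shared with *Gm49394*, so its place in the order is not settled. *Igf1* (31.5 ± 2.35 FPKM), *Igfbp7* (30.5 ± 4.25 FPKM) and *Igfbp6* (24.3 ± 2.18 FPKM) followed. The ranges of *Igf1* and *Igfbp7* overlapped, as did those of *Igfbp7* and *Igfbp6*, so their order is not settled. *Igf1r* was lowest at 12.6 ± 0.413 FPKM.

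In saline germ cells the order was different. *Igf2r* was highest at 85 ± 10.1 FPKM. *Igf1r* came next at 9.24 ± 1.05 FPKM, in a range that overlapped that of *Igfbp3* at 8.98 ± 1.36 FPKM. The other 7 genes stood between 0.347 FPKM (*Igf1*) and 5.43 FPKM (*Igfbp5*). The range of *Igfbp5* overlapped that of *Igfbp2* (4.84 ± 0.754 FPKM), the next in order.

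**Figure D1:**
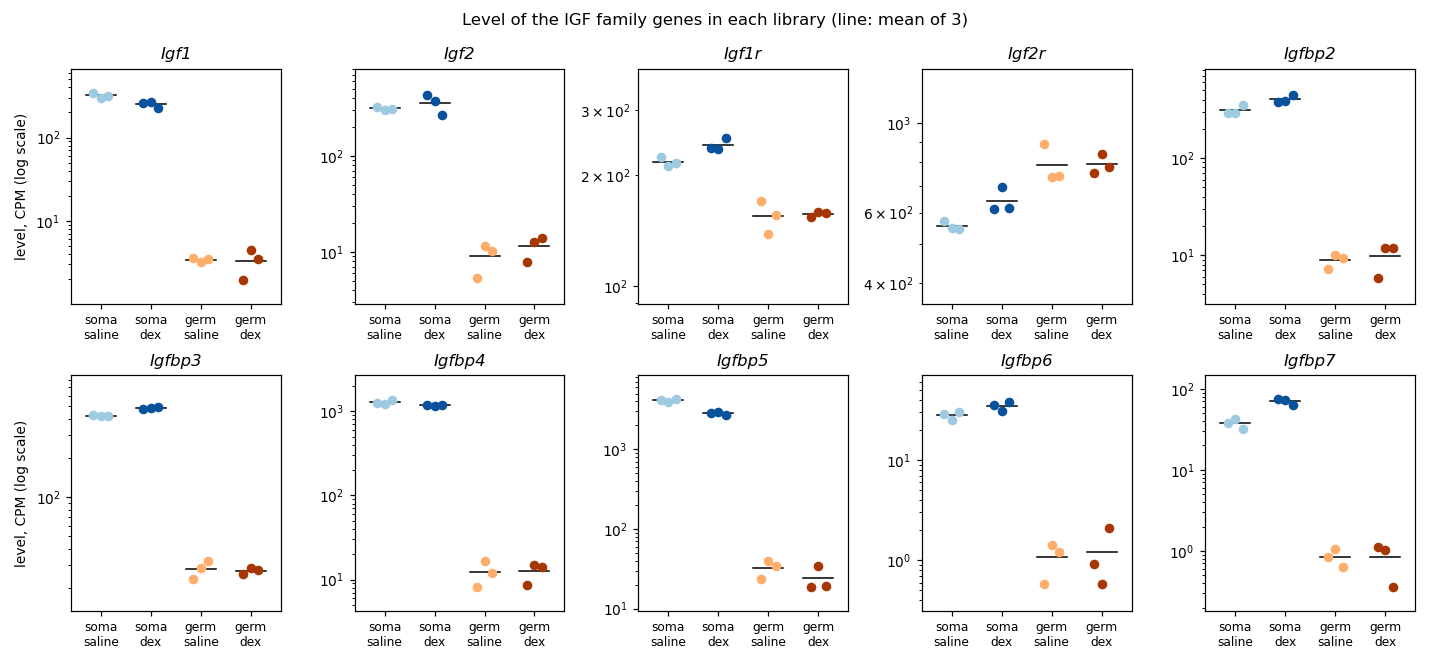
Level of each of the 10 genes in each of the 12 libraries, in CPM on a log axis whose range differs between panels, with a line at the mean of 3. For *Igf1r* and *Igf2r* the germ cell and soma levels were of the same order, and *Igf2r* was higher in the germ cell libraries.

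*Igf2r* was the only one of the 10 genes with a higher level in germ cells. Its level was 891, 737 and 741 CPM in the saline germ cell libraries and 571.5, 549 and 547 CPM in the saline soma libraries. All 3 germ cell libraries lay above all 3 soma libraries. The log2 fold change of germ cells against soma was 0.50 ± 0.08 (SE; BH-adjusted p = 4.258e-05, edgeR). After dex it was 0.27 ± 0.08 (BH-adjusted p = 0.011, edgeR), again with no overlap.

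*Igf1r*, the receptor through which both ligands signal, was lower in germ cells but close to soma in level. It stood at 171, 138 and 155.5 CPM in saline germ cells and at 224, 212 and 216.5 CPM in saline soma. The germ cell libraries lay below the soma libraries and held 71.2 ± 7.41% of the mean soma level (SD, n = 3). The log2 fold change was -0.49 ± 0.08 (BH-adjusted p = 4.45e-05, edgeR) after saline and -0.65 ± 0.07 (BH-adjusted p = 2.997e-06, edgeR) after dex.

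The other 8 genes were lower in germ cells by log2 values between -3.91 (*Igfbp3*) and -6.99 (*Igfbp5*) after saline. *Igf1* stood at 3.55, 3.25 and 3.48 CPM in the saline germ cell libraries, from 55, 55 and 60 counts, against 346, 302 and 315 CPM in saline soma. *Igf2* stood at 5.36, 11.5 and 10.2 CPM in saline germ cells and at 327, 303 and 310.5 CPM in saline soma. Neither ligand came near its soma level in a germ cell library. *Igfbp7* had 13, 18 and 11 counts in the saline germ cell libraries and *Igfbp6* had 9, 24 and 21, so their levels there rest on few fragments. The limit that a count of 0 allows, 3 counts, was between 0.169 and 0.196 CPM per library, and this limit covers counting error only.

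All 10 genes were called between germ cells and soma after saline (1 higher, 9 lower), and the same split was found after dex. Between the cell types 86.1% of all 17941 genes tested were called after saline and 84.3% of 18171 after dex, so a call here is common. The genes lower in germ cells were 42.9% of all tested after saline and 42.2% after dex. The median log2 fold change was -5.12 over the 10 genes and 0.00 over all genes tested after saline.

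Somatic transcripts were also found at a low level in the germ cell libraries. Over 56 markers of somatic cell types, the median level in a saline germ cell library was between 1.71% and 3.18% of the mean soma level. After dex it was between 1.80% and 3.44%. None of the somatic markers was at 0 in every germ cell library. After saline the germ cell level was 0.788% of soma for *Igfbp5*, 0.960% for *Igfbp4*, 1.07% for *Igf1*, 2.23% for *Igfbp7*, 2.87% for *Igf2*, 2.87% for *Igfbp2*, 3.85% for *Igfbp6* and 6.65% for *Igfbp3*. The part of somatic RNA in these germ cell levels was not tested. *Igf1r* and *Igf2r*, at 71.2% and 142% of soma, stood far above these medians. Single markers also stood high, among them the endothelial marker *Tek* at 224% and the macrophage marker *Mrc1* at 43.8% after saline.

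**Figure D2:**
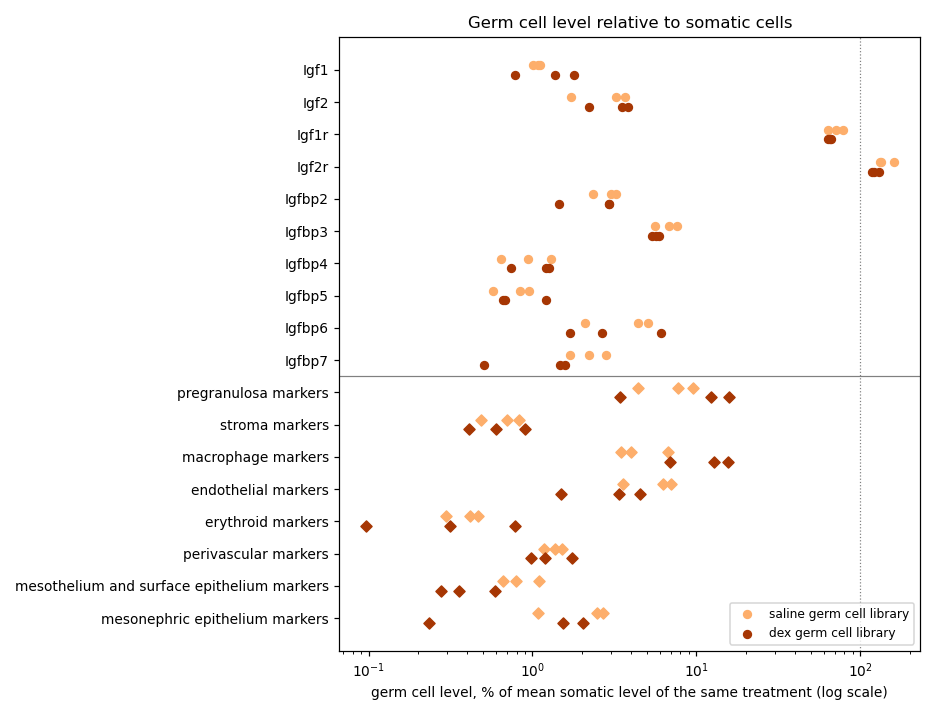
Level in each germ cell library as a percent of the mean soma level of the same treatment, on a log axis, for the 10 genes (circles) and for the median of each somatic marker list (diamonds). *Igf1r* and *Igf2r* lay between 63.6% and 160% in all 6 germ cell libraries, while the other 8 genes lay between 0.505% and 7.60%, within the spread of the marker lists.

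The response of soma to dex was asked next. In soma 5 of the 10 genes were called, 3 higher and 2 lower. Over all 16556 genes tested 8.18% were called, 4.81% higher and 3.36% lower. For 9 of the 10 genes the 3 dex libraries lay all above or all below the 3 saline libraries, which was so for 25.6% of all genes tested. The median log2 fold change was 0.20 over the 10 genes and 0.0001 over all genes. Soma is a mixture of cell types, so a change in RNA per cell and a change in the number of cells of a type cannot be told apart.

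The comparison was repeated without the third soma dex library. Without it the log2 fold change was 0.98 for *Igfbp7*, 0.30 for *Igfbp2*, -0.28 for *Igf1* and -0.51 for *Igfbp5*, all called. *Igfbp3*, at 0.19, was no longer called (BH-adjusted p = 0.0609, edgeR), while *Igf2* and *Igf2r* were, so that 6 of the 10 genes passed. Calls over all genes were also more numerous in that fit, 1881 of 16993 genes against 1354 of 16556.

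*Igfbp7* stood at 38.4, 43.1 and 32.3 CPM after saline and at 74.7, 73.8 and 64.1 CPM after dex. The lowest dex library was well above the highest saline library. Its log2 fold change was 0.91 ± 0.10 (BH-adjusted p = 7.865e-05, edgeR), a level 1.88 times that after saline (95% interval 1.61 to 2.19). It was called under all 12 alternatives tried. *Polr2b*, which overlaps it, stood at 96.2 CPM after saline and 98.2 CPM after dex in soma.

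*Igfbp5*, the most abundant transcript of the family in soma, went the other way. It stood at 4180, 3943 and 4296 CPM after saline and at 2834, 2951 and 2670 CPM after dex. No dex library reached a saline library. It fell by 0.55 ± 0.06 on the log2 scale (BH-adjusted p = 9.055e-05, edgeR), to 0.684 of the saline level (95% interval 0.623 to 0.751). The call was lost in 1 of 12 alternatives, the fit of all 12 libraries together (BH-adjusted p = 0.0794, edgeR).

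*Igfbp2* stood at 291.5, 289 and 351 CPM after saline and at 376, 388 and 447 CPM after dex. All 3 dex libraries lay above the saline libraries. The log2 fold change was 0.39 ± 0.09 (BH-adjusted p = 0.0155, edgeR). *Igfbp2* and *Igfbp5* lie next to each other and moved in opposite directions. The *Igfbp2* call was kept in 8 of 12 alternatives. It was lost in one fit of all 12 libraries, with limma, without the first soma saline library (BH-adjusted p = 0.0904, edgeR) and without the second (BH-adjusted p = 0.0814, edgeR).

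*Igfbp3*, whose protein is the main carrier of IGFs in adult blood, stood at 427, 423 and 417 CPM after saline and at 477, 483 and 492 CPM after dex. The replicates were close in both groups and the groups did not overlap. The change was small, 0.20 ± 0.06 on the log2 scale (BH-adjusted p = 0.0453, edgeR). This call lay at the threshold and was kept in 1 of 12 alternatives, DESeq2.

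*Igf1* stood at 346, 302 and 315 CPM after saline and at 259, 268 and 226 CPM after dex. All 3 dex libraries were below the saline libraries. It fell by 0.35 ± 0.08 on the log2 scale (BH-adjusted p = 0.013, edgeR), to 0.786 of the saline level (95% interval 0.700 to 0.882). The call was kept in 9 of 12 alternatives, and was lost without the first soma saline library (BH-adjusted p = 0.0786, edgeR), in one fit of all 12 libraries and with limma. *Igf1* is a gene that macrophages also express, and macrophage markers moved in the same direction. Of 10 macrophage markers 6 were called lower in soma after dex and none higher, with a summed level between 218 and 289 CPM after saline and between 64.6 and 156 CPM after dex. The part of these cells in the *Igf1* level was not tested.

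*Igf2*, the ligand of fetal growth, was the only one of the 10 genes whose soma groups overlapped. It stood at 327, 303 and 310.5 CPM after saline and at 437, 376 and 267 CPM after dex. The low dex value came from the third library, in which stroma markers were lowest. The log2 fold change over all 6 libraries was 0.20 ± 0.13 (BH-adjusted p = 0.407, edgeR). Without the third dex library it was 0.38 (BH-adjusted p = 0.00184, edgeR), and without the first it was 0.04 (BH-adjusted p = 0.882, edgeR), so the value depends on which dex library is left out. The part of the stroma share in this value was not tested.

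Neither receptor was called in soma, although both had higher values in every dex library. *Igf1r* stood at 224, 212 and 216.5 CPM after saline and at 236.5, 235 and 252 CPM after dex. Its log2 fold change was 0.16 ± 0.06 (95% interval 0.02 to 0.29; BH-adjusted p = 0.155, edgeR). *Igf2r* stood at 571.5, 549 and 547 CPM after saline and at 613.5, 693 and 617 CPM after dex. Its log2 fold change was 0.21 ± 0.07 (95% interval 0.07 to 0.36; BH-adjusted p = 0.0716, edgeR). *Igf2r* passed the threshold in 3 of 12 alternatives, without the third soma dex library (BH-adjusted p = 0.0309, edgeR), without a filter on low counts (BH-adjusted p = 0.0450, edgeR) and with DESeq2 (BH-adjusted p = 0.0158).

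The remaining binding protein genes were not called. *Igfbp6*, whose protein prefers IGF2 over IGF1, stood at 28.5, 25.2 and 29.8 CPM after saline and at 35.0, 30.6 and 37.7 CPM after dex. The log2 fold change of this gene was 0.31 ± 0.11 (BH-adjusted p = 0.0971, edgeR). *Igfbp4* stood at 1251, 1221 and 1372 CPM after saline and at 1184, 1165 and 1191 CPM after dex, with a log2 fold change of -0.11 ± 0.06 (BH-adjusted p = 0.350, edgeR). The dex libraries of *Igfbp6* all lay above and those of *Igfbp4* all below the saline libraries.

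The other marker lists of soma had fewer calls than the macrophage list. Of 8 endothelial markers 1 was called higher and 2 lower, with sums between 335 and 391 CPM after saline and between 296 and 336 CPM after dex. Of 8 stroma markers 1 was called higher and none lower (20790 to 23160 CPM after saline, 19400 to 25620 CPM after dex). Of 10 pregranulosa markers 1 was called lower (1013 to 1089 CPM after saline, 779 to 1129 CPM after dex). Of 6 perivascular markers 1 was called higher and 1 lower (859 to 893.5 CPM after saline, 804 to 995 CPM after dex). None of the erythroid, mesothelium and surface epithelium or mesonephric epithelium markers was called. Of 4 germ cell markers tested in soma 1, *Dazl*, was called higher. The part of these cell types in the levels of the 10 genes was not tested.

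**Figure D3:**
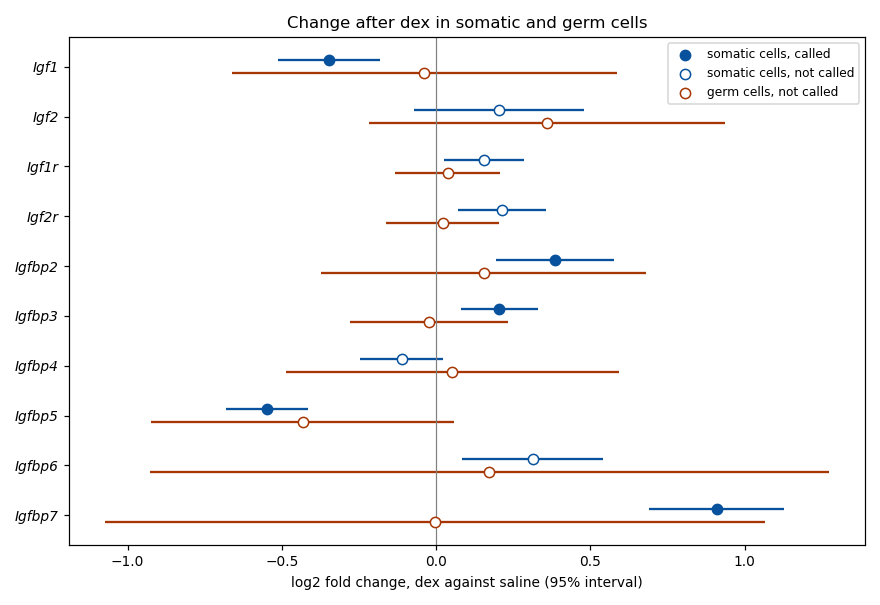
Log2 fold change of dex against saline with its 95% interval for each of the 10 genes, in soma (blue) and germ cells (red), filled where called. *Igfbp7* had the highest value in soma (0.91) and *Igfbp5* the lowest (-0.55), and the germ cell intervals all included 0.

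These opposed changes shifted the make-up of the binding protein transcripts in soma. *Igfbp5* made 52.3%, 51.2% and 51.0% of the summed FPKM of the 6 binding protein genes in the saline libraries and 39.7%, 40.7% and 37.0% in the dex libraries. The lowest saline share was above the highest dex share. The share of *Igfbp2* was 12.54 ± 0.900% after saline and 18.2 ± 1.69% after dex (SD, n = 3), that of *Igfbp3* 10.1 ± 0.541% and 12.9 ± 0.180%, and that of *Igfbp7* 2.36 ± 0.436% and 4.89 ± 0.415%. *Igfbp4* held 21.7 ± 0.444% and 22.3 ± 0.389%. The summed level was 1298, 1240 and 1363 FPKM after saline and 1167, 1177 and 1165 FPKM after dex. These shares restate the levels above and were not tested.

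**Figure D4:**
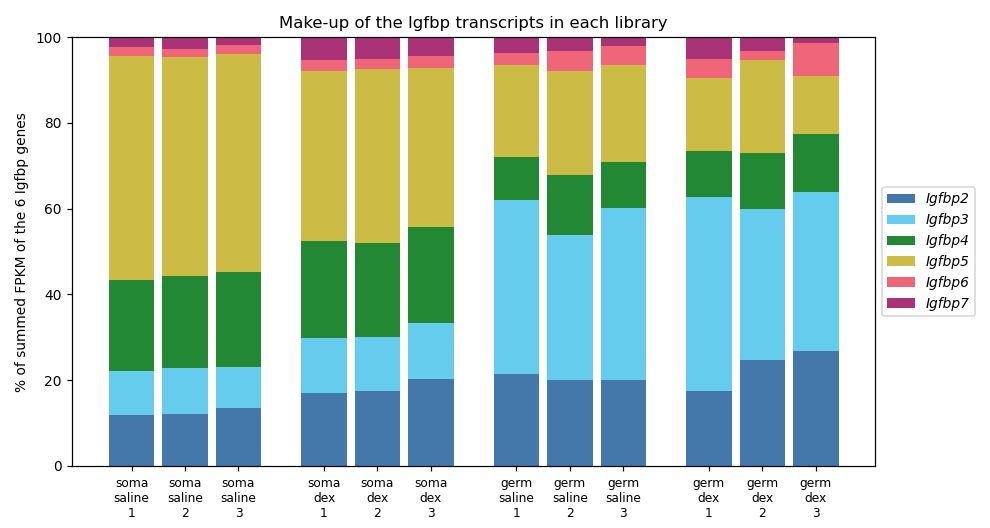
Share of each binding protein gene in the summed FPKM of the 6 genes, for each library. In soma *Igfbp5* made 51.5% on average after saline and 39.1% after dex, and in germ cells, where the sum was between 18.3 and 26.9 FPKM, *Igfbp3* made the greatest share in every library.

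Among the ligands of soma, the FPKM ratio of *Igf2* to *Igf1* was 1.64, 1.74 and 1.71 in the saline libraries and 2.92, 2.42 and 2.05 in the dex libraries. The ratio was higher in every dex library than in every saline library, and lowest of the dex group in the third. The sum of both ligands was 84.7 ± 4.64 FPKM after saline and 86.1 ± 17.0 FPKM after dex (SD, n = 3). Both the ratio and the sum rest on the *Igf2* level, which may read too low because of the exon bases shared with *Gm49394*. The ratio of *Igf2r* to *Igf1r* was 4.61 ± 0.0569 after saline and 4.81 ± 0.466 after dex in soma, and 9.21 ± 0.538 and 9.09 ± 0.376 in germ cells.

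In dex soma the order of levels was otherwise kept at the top. *Igfbp5* (458 ± 24.2 FPKM), *Igfbp4* (261 ± 3.17 FPKM), *Igfbp2* (213 ± 19.1 FPKM) and *Igfbp3* (151 ± 1.60 FPKM) were each apart from the next. *Igf2r* (67.2 ± 4.65 FPKM), *Igf2* (61.4 ± 14.98 FPKM) and *Igfbp7* (57.2 ± 5.003 FPKM) followed. The range of *Igf2* overlapped those of *Igf2r* and *Igfbp7*, and its level may again read too low. *Igf2r*, at 64.3 FPKM or more, was apart from *Igfbp7*, at 60.6 FPKM or less. *Igfbp6* (30.2 ± 3.09 FPKM), *Igf1* (24.7 ± 2.28 FPKM) and *Igf1r* (14.0 ± 0.492 FPKM) came last.

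In germ cells dex was compared with saline in the same way, to ask whether these genes responded in the germline. None of the 10 genes was called by edgeR, none had an unadjusted p under 0.05, and DESeq2 called none. Over all 16857 genes tested edgeR called 35, or 0.208%, and 1963 had an unadjusted p under 0.05. For all 10 genes the dex and saline libraries overlapped, where 17.1% of all genes tested did not.

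The receptors, the members with the highest germ cell levels, had the narrowest intervals. *Igf2r* stood at 891, 737 and 741 CPM after saline and at 754, 840.5 and 779.5 CPM after dex in germ cells, a log2 fold change of 0.02 (95% interval -0.16 to 0.21). *Igf1r* stood at 171, 138 and 155.5 CPM after saline and at 154, 159 and 158 CPM after dex, a log2 fold change of 0.04 (95% interval -0.13 to 0.21). Both pairs of groups overlapped fully, and changes smaller than these intervals could not be seen at this spread.

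*Igfbp5* had the lowest unadjusted p of the 10 in germ cells. It stood at 23.7, 39.5 and 34.6 CPM after saline and at 18.5, 33.9 and 19.2 CPM after dex. The highest dex library lay among the saline libraries. The log2 fold change was -0.43 (95% interval -0.92 to 0.06; BH-adjusted p = 0.498, edgeR). Without a filter on low counts it was called lower (BH-adjusted p = 0.0239, edgeR). *Igfbp7* stood at 0.839, 1.06 and 0.638 CPM after saline and at 1.11, 1.04 and 0.358 CPM after dex, and its interval of -1.07 to 1.07 on the log2 scale leaves its response in germ cells unmeasured at this depth.

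*Igf2* stood at 5.36, 11.5 and 10.2 CPM after saline and at 7.91, 12.6 and 13.8 CPM after dex in germ cells, with a log2 fold change of 0.36 (BH-adjusted p = 0.639, edgeR). *Igf1* had a log2 fold change of -0.04, and it stood between 1.96 and 4.47 CPM after dex. The remaining 4 genes had log2 fold changes between -0.02 (*Igfbp3*) and 0.17 (*Igfbp6*). The libraries of each group spread over all of these differences.

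The difference of the dex effect between germ cells and soma was tested directly over all 12 libraries. None of the 10 genes was called by edgeR or by DESeq2, where edgeR called 314 of 19390 genes, or 1.62%. *Igfbp7* was the 1 member with an unadjusted p under 0.05. Its effect in germ cells was lower than in soma by a log2 difference of -0.94 (95% interval -1.80 to -0.08; edgeR, unadjusted p = 0.0334, BH-adjusted p = 0.277). The calls made in soma alone are therefore not shown to differ from the response in germ cells.

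The wider IGF pathway was read from 24 further genes that carry, process or relay the signal. In soma 19 of them were tested, of which 5 were called higher, 1 lower and 13 neither, with a median log2 fold change of 0.12. Over all 16556 genes tested in soma 8.18% were called, 4.81% higher and 3.36% lower. *Igfbp1*, *Igfals*, *Igfn1*, *Ins1* and *Ins2* were too low to test, and *Ins1* had 0 counts in every library. Several of these genes act on the signal itself. *Insr*, the insulin receptor, which also binds IGF2, stood at 95.6, 95.7 and 89.8 CPM after saline and at 127, 125 and 128 CPM after dex in soma. The groups were far apart for their spread, with a log2 fold change of 0.44 ± 0.06 (BH-adjusted p = 0.000371, edgeR).

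*Grb10*, an imprinted adaptor that dampens insulin and IGF1 receptor signalling, stood at 1068, 1024 and 1015 CPM after saline and at 1411, 1373 and 1148 CPM after dex. Dex libraries were higher by 0.35 ± 0.08 on the log2 scale (BH-adjusted p = 0.0127, edgeR). *Grb14*, a related adaptor, stood at 19.3, 16.9 and 18.7 CPM after saline and at 9.73, 9.62 and 11.5 CPM after dex. It fell by 0.83 ± 0.13 on the log2 scale (BH-adjusted p = 0.00143, edgeR). So 1 of these adaptors was higher and the other lower, *Grb10* being by far the more abundant in counts. *Irs1*, *Irs2* and *Shc1*, which relay the signal inside the cell, were not called, with log2 fold changes of 0.14, 0.23 and 0.11.

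*Stc2*, whose protein inhibits the pappalysin proteases that cleave IGFBPs, stood at 24.0, 22.7 and 28 CPM after saline and at 39.6, 38.4 and 47.8 CPM after dex. Its log2 fold change was 0.76 ± 0.11 (BH-adjusted p = 0.000759, edgeR). The proteases themselves, *Pappa* (0.12) and *Pappa2* (0.05), and the other stanniocalcin *Stc1* (0.18) were not called on the log2 scale. All 3 dex libraries of *Stc2* lay above the saline libraries.

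*H19*, the imprinted non-coding RNA next to *Igf2*, lies on chromosome 7 with 72622 bases between the genes. It stood at 5282, 4838 and 5968 CPM after saline and at 6537, 7210 and 6164 CPM after dex in soma, with a log2 fold change of 0.31 ± 0.08 (BH-adjusted p = 0.0275, edgeR). *Plagl1*, an imprinted zinc finger factor known to activate *H19* and *Igf2*, stood at 492, 487 and 425 CPM after saline and at 735, 702 and 589 CPM after dex. *Plagl1* thus had a log2 fold change of 0.54 ± 0.09 (BH-adjusted p = 0.00147, edgeR). For both genes every dex library lay above every saline library, which was not so for *Igf2*.

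**Figure D5:**
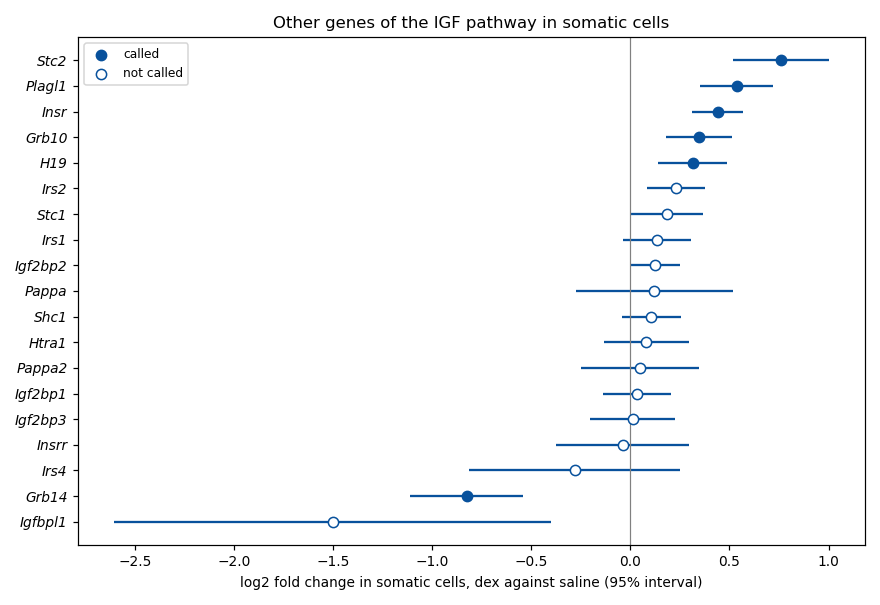
Log2 fold change of dex against saline in soma with its 95% interval for the 19 further pathway genes tested, filled where called. *Stc2* had the highest value (0.76) and *Grb14* the lowest called value (-0.83), while the wide interval of *Igfbpl1* comes with levels between 0.281 and 2.12 CPM.

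In germ cells 19 of the 24 further genes were tested for dex against saline and none was called, while 4 had an unadjusted p under 0.05. Over all 16857 genes tested edgeR called 0.208%, and 1963 had an unadjusted p under 0.05. *Grb10* stood at 191, 196.5 and 183 CPM after saline and at 143.5, 165 and 177 CPM after dex, with a log2 fold change of -0.22 (BH-adjusted p = 0.284, edgeR). *H19* stood at 52.2, 99.6 and 104.5 CPM after saline and at 66.7, 311 and 220 CPM after dex, a log2 fold change of 1.24 (BH-adjusted p = 0.282, edgeR). The *H19* groups overlapped. The dex effect on *Insr* differed between the cell types by a log2 value of -0.61 ± 0.15 (BH-adjusted p = 0.0443, edgeR) and that on *Grb10* by -0.57 ± 0.12 (BH-adjusted p = 0.0171, edgeR), germ cells minus soma. They were the 2 called of 21 genes tested for this difference, where 1.62% of all 19390 genes tested were called.

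Between the cell types after saline, 3 of 19 further genes tested were higher in germ cells, 14 were lower and 2 were not called, where 86.1% of all genes tested were called. *Irs2*, in CPM, had a mean of 114 ± 6.53 in germ cells against 80.3 ± 2.30 in soma (SD, n = 3), and *Irs4* had 19.3 ± 4.02 against 5.02 ± 0.624. *Igf2bp3*, an RNA-binding protein of the *Igf2* message, had 93.7 ± 10.8 CPM against 39.2 ± 4.23 CPM. *Insr* was not called, at 98.1 ± 17.8 CPM against 93.7 ± 3.39 CPM. *Irs1* was lower in germ cells, at 3.97 ± 0.994 CPM against 57.8 ± 4.44 CPM in soma.

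The genes whose pattern over the 12 libraries was most like a member were taken by the root mean square difference of centred log2(CPM + 1), over the 16142 genes whose mean reached 1 CPM. The pattern rests mainly on the contrast of germ cells and soma, which all such genes share. *Igf1r* lay closest to *Keap1* (0.0624), *Gatd1* and *Pard3*, and *Igf2r* to *Atf6* (0.0726), *Prrc2c* and *Nbr1*. *Igf1* lay closest to *Ngfr* (0.200), *Tgm2* and *Ddr2*, and *Igf2* to *Egr1* (0.176), *Ehd2* and *Pcdhgc3*. *Igfbp5* lay closest to *Lum* (0.244), *Tgfbi* and *Eln*, and *Igfbp4* to *Mrc2* (0.178), *Pdgfrb* and *Emilin3*. *Igfbp3* lay closest to *Cnpy2* (0.0953), *Cyp2j6* and *Tubb5*, and *Igfbp6* to *Nod1* (0.176), *Gfra1* and *Cyp2j6*. Among the members themselves the closest were *Igfbp3* and *Igfbp6* (0.240), then *Igf2* and *Igfbp2* (0.294).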

How the data were processed

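Poly-A RNA of 12 libraries was sequenced as read pairs and, per the labels, aligned to mm10 with HISAT2 2.0.5 and counted per gene with featureCounts 1.5.0-p3 by the authors. The deposited counts are raw whole numbers for 54532 genes. The deposited FPKM were computed by the authors from the same data and were used for comparing levels between genes. The authors' own fold changes and p-values for dex against saline, also deposited, were not used.

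Genes passing filterByExpr were fitted with edgeR 4.0.16 (TMM normalisation, quasi-likelihood test, R 4.3.3) for each comparison separately, with no covariate, and called at a Benjamini-Hochberg (BH) adjusted p of at most 0.05 over all genes tested. The difference between cell types was fitted over all 12 libraries. Errors of fold changes are SE, worked out from the fold change and the F value of its quasi-likelihood test. The 95% intervals use that SE. CPM used TMM factors over 12 libraries. DESeq2 1.42.0, limma 3.58.1 on log2(FPKM + 0.1), RLE size factors, no filter on low counts, one fit over all 12 libraries, a replicate block and leaving out each library were alternatives. The test script was first tested on simulated data. The replicate is a pooled library, labelled as a biological replicate. The libraries' counts bound the precision of low genes, with 3 counts between 0.169 and 0.196 CPM.

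The genes named were the 10 members, the 24 further pathway genes, the 3 genes most alike to each member (those of *Igfbp2* and *Igfbp7* are not reported here), overlapping genes, and fixed marker lists. The members and lists were chosen with earlier results of these data known. Coordinates are those in the files and matched GENCODE M21 (GRCm38) for all 10 members.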

Additional observations from a re-analysis of the deposited data

Results flagged for a closer look

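The effect of dex on *Insr* differed between the cell types. Germ cells minus soma, the log2 difference was -0.61 (95% interval -0.92 to -0.30; BH-adjusted p = 0.0443, edgeR). *Insr* was higher after dex in 3 of 3 soma libraries, while the germ cell groups overlapped. This call lay close to the threshold, and values under the alternatives were not read out for *Insr* or *Grb10*.

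The effect of dex on *Grb10* also differed, by a log2 difference of -0.57 (95% interval -0.82 to -0.33; BH-adjusted p = 0.0171, edgeR). All 3 soma dex libraries lay above the soma saline libraries and all 3 germ cell dex libraries lay below the germ cell saline libraries, the latter without passing the test in germ cells alone. Both are among 24 further pathway genes, of which 21 were tested for this difference. Of all 19390 genes tested for it 1.62% were called.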

How the results depend on the processing

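Of 650 values recomputed for the 10 members, 603 kept their direction and their side of the threshold, 19 lost a call, 5 gained one and 23 changed sign, the last all among uncalled germ cell dex effects or differences between cell types. All 10 calls between germ cells and soma held under every alternative. In soma 5 members were called after dex, 6 with DESeq2, 1 in one fit over all 12 libraries, 2 with limma on FPKM, and between 2 and 6 when a library was left out (2 without the first soma saline library, 3 without the second, 6 without the third soma dex library). In germ cells none was called, and 1 without a filter on low counts. Over all genes, the 1354 called in soma became 803 in one fit over all 12 libraries, 416 with limma, and between 754 and 1881 with a library left out. The 35 called in germ cells became 158 with DESeq2, 420 without a filter, 64 in one fit over all 12 libraries, 3 with limma, and between 17 and 81. The 314 called for the difference became 620 with DESeq2, 727 without a filter, 143 with limma, and between 143 and 384. DESeq2 moved the median log2 fold change of all genes between the cell types to 0.21 after saline and 0.32 after dex. The causes of these shifts were not tested.

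With a library left out, the log2 change after dex in germ cells spanned -0.32 to 0.20 for *Igf1*, -0.0442 to 0.12 for *Igf1r*, -0.0341 to 0.12 for *Igf2r*, -0.009 to 0.39 for *Igfbp2*, -0.13 to 0.0765 for *Igfbp3*, -0.16 to 0.32 for *Igfbp4*, -0.48 to 0.49 for *Igfbp6* and -0.29 to 0.37 for *Igfbp7*. The difference between cell types spanned -0.11 to 0.35 for *Igf2*, -0.38 to 0.0161 for *Igfbp2*, -0.0536 to 0.43 for *Igfbp4*, -0.22 to 0.26 for *Igfbp5* and -0.81 to 0.19 for *Igfbp6*.

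With the replicate number as a block, 4 members were called in soma, since *Igfbp3* was lost (log2 fold change 0.20, BH-adjusted p = 0.0804, edgeR). This block moved the counts over all genes to 1520 in soma and 49 in germ cells. For the difference the block was the replicate number within each treatment, joining same-numbered germ cell and soma libraries, and 222 genes were called. The correlation of deviations between same-numbered dex and saline libraries was 0.128, -0.0214 and 0.0596 in soma and 0.218, 2e-04 and 0.0801 in germ cells. It was highest for number 1 in both cell types. Whether same-numbered dex and saline libraries share more than a number is not given. Between germ cells and soma of 1 treatment the correlation was between 0.0823 and 0.147, and every germ cell library correlated best with the soma library of its own number. Both fractions were sorted from dissociated ovaries, but whether the same number marks the same pool is not stated, so this pairing is a hint from the data. The main tests between the cell types and of the difference had no block and treated these libraries as independent.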
